A study of Mus musculus with 4 samples.

Results

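The genes of the exon junction complex and of the Upf factors that read it were followed in RNA-seq libraries of mouse embryonic stem cells (ES cells). The members were the rows of the count tables whose symbol is *Magoh*, *Magohb*, *Rbm8a*, *Eif4a3*, *Casc3*, *Upf1*, *Upf2* or *Upf3b*, which are 8 of 24054 genes. All 8 had enough counts to be tested, among 13267 tested genes. The group was chosen by the low *Magohb* counts of the Morc3 rescue clones relative to wild-type cells in these same libraries, so the *Magohb* values below are a description of that choice and carry no test. The other 7 members were chosen for their function, though with earlier results of these data known. The question was whether the paralog or the partners of *Magohb* changed as well.

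The libraries came from 1 culture of the ES cell line wt26, the wild type of the study, and from 3 Morc3 rescue clones, T131-3C, T131-3D and T131-3M, here called 3C, 3D and 3M. All of them were feeder-independent cells grown on gelatin in serum and LIF. Each rescue clone is a single-cell clone of the same Morc3 ko line, itself a single clone of wt26 cut with Cas9, into which the full-length Morc3 cDNA was put with a PiggyBac transposon under puromycin selection. The clones therefore share the ko allele, the passage through 1 cell and the selection, whereas the wild-type culture has none of these, and an effect of Morc3 cannot be told apart from a difference that arose in the ko line or in the wild-type culture. The ko libraries were not analysed here.

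On the reverse strand, 18789457 read pairs lay on genes for wt26 and 13620914 to 15479190 for the clones, while unmapped pairs were 14.5% of all pairs in wt26 and between 21.0% and 23.0% in the clones. Levels are given as CPM, the counts divided by the library size after TMM scaling and brought to a common total. *Morc3* had 161 CPM in wt26 and 655, 497 and 609 CPM in 3C, 3D and 3M, above wt26 in 3 of 3 clones (log2 fold change 1.87, standard error 0.17, edgeR adjusted p = 0.11). All 10 listed ES cell markers were present in every library, with summed levels of 4408 CPM in wt26 and 4551, 4680 and 4574 CPM in the clones. Their lowest log2 fold changes were -0.11 for *Klf4* and -0.08 for *Pou5f1*, and the highest 0.23 for *Fgf4* and 0.54 for *Nanog*. *Nanog*, a core pluripotency factor, had 300 CPM in wt26 and 468, 358 and 481 CPM in the clones. *Nanog* and *Fgf4* had an unadjusted p under 0.05 (edgeR adjusted p = 0.40 and 0.37), and 0 of 10 passed the adjusted p of 0.01. The summed levels of 8 fibroblast markers lay between 25.6 and 50.3 CPM, with *Col3a1*, *Dcn* and *Lum* at 0 in all libraries. Most of that sum was *Thy1*, at 31.7 CPM in wt26 and 43.7, 18.6 and 22.7 CPM in 3C, 3D and 3M. The summed levels of 6 endoderm markers lay between 2.47 and 4.97 CPM, and those of 6 mesoderm and neural markers between 6.60 and 14.3 CPM. The tested markers of these 3 lists had log2 fold changes of -0.17 (*Thy1*), -0.004 (*Col1a1*) and 0.17 (*Pdgfrb*) for fibroblasts, -0.66 (*Dab2*) and 0.02 (*Gata4*) for endoderm, and -0.51 (*Mixl1*), 0.20 (*Sox1*) and 0.79 (*Eomes*) for mesoderm and neural cells, with 0 having an unadjusted p under 0.05.

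The exon junction complex is set down on an mRNA just upstream of each splice junction and travels with it to the cytoplasm. The RNA helicase Eif4a3 clamps the RNA, the heterodimer of Magoh or Magohb with Rbm8a (Y14) locks the clamp, and Casc3 (Barentsz) joins as a further core subunit. Upf3b docks on the complex and links it, through Upf2, to the helicase Upf1, and this chain marks an mRNA with a premature stop codon for nonsense-mediated decay (NMD). Magoh and Magohb are encoded by separate genes and take the same place in the heterodimer.

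The near-identity of the paralogs at the protein level raises the question whether their reads can be separated. *Magoh* lies on chromosome 4 of mm10 (107879755 to 107887424, plus strand) and *Magohb* on chromosome 6 (131284388 to 131293244, minus strand), and both have 5 exons in the GENCODE transcripts used here. Their coding sequences of 441 and 447 bases encode 146 and 148 residues, which differ at 1 aligned residue and by 2 residues present in Magohb alone. At the level of the mRNA the same sequences were 79.9% identical, with 84 mismatches, 73 of them at the third codon position. The last 120 coding bases, stop codon included, are shown for each gene from the GENCODE transcripts of GRCm38, in the direction of the mRNA, because they show how 2 genes with the same protein end differ in the reads they give. Capitals mark the 24 positions at which they differ.

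Magoh: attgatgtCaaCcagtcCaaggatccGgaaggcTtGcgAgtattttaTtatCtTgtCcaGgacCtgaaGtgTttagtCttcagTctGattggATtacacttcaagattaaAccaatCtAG

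Magohb: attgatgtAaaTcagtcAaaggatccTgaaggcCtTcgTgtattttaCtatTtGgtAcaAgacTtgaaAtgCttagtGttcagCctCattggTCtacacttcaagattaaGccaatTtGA

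The 40 codons of the stretches above encode the same residues, with 0 differences, and both end in a stop codon. The longest run of identical bases between the coding sequences was 17, shorter than the 50-base reads of the study. No window of 50 bases of the *Magoh* transcript (643 windows) or of the *Magohb* transcript (718 windows) was found in any other annotated transcript. Reads of the paralogs were thus distinguishable in the annotated transcripts. *Casc3*, *Upf1*, *Upf2* and *Upf3b* also had 0 windows in transcripts of genes elsewhere. In contrast, 24.4% of the windows of *Eif4a3* occur in its retrogene copies and 7.79% of those of *Rbm8a* in *Rbm8a2*, so reads from there have more than 1 place to map and the counts of both genes are uncertain.

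*Magohb* had 94 counts in wt26 and 12, 10 and 23 in 3C, 3D and 3M. In CPM, the level was 4.93 in wt26 and 0.890, 0.687 and 1.49 in the clones (1.02 ± 0.41 CPM, SD, n = 3). All clones lay below wt26, the pattern for which the gene was chosen, as did those of 28.4% of all tested genes. The 95% exact Poisson interval, which covers counting error only, was 3.98 to 6.03 CPM in wt26 and 0.941 to 2.23 CPM in clone 3M. The log2 fold change was -2.25 (standard error 0.36), or 4.74-fold lower in the clones. In percent of the wt26 level, the 95% interval of this fit, which includes the spread between clones, runs from 11.3% to 39.4%. At the wt26 rate 214.5 counts would have been found in the clones together, and 45 were found. That is 21.0% of the wt26 level, with a 95% exact interval, again of counting error only, from 14.4% to 30.2%. Singly, the clones had 18.1%, 13.9% and 30.1% of it. The transcript was thus low but not absent in each clone. The highest clone, 3M, had 2.16 times the level of the lowest, 3D, with a counting interval of 0.989 to 5.08, so the clones were not distinguishable from each other at this depth. No read pair fell on the opposite strand of *Magohb* in any library. Of the 7 *Magohb* transcripts in GENCODE, 3 are annotated as NMD transcripts, against 0 for each other member. The counts are per gene and do not separate them. Since these are bulk libraries, fewer cells that express the gene and less RNA per cell cannot be told apart.

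*Magoh*, the paralog, had 1217 counts in wt26 and 890, 952 and 987 in the clones. In CPM it was at 63.8 in wt26 and at 66.0, 65.4 and 63.7 in 3C, 3D and 3M, so that wt26 lay between the clones. The log2 fold change was 0.03 (standard error 0.08), with a 95% interval from -0.17 to 0.23, and the adjusted p was 0.93 (quasi-likelihood test of edgeR, Benjamini-Hochberg adjustment over all tested genes). In percent, the interval runs from 88.6% to 117% of the wt26 level.

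**Figure D1:**
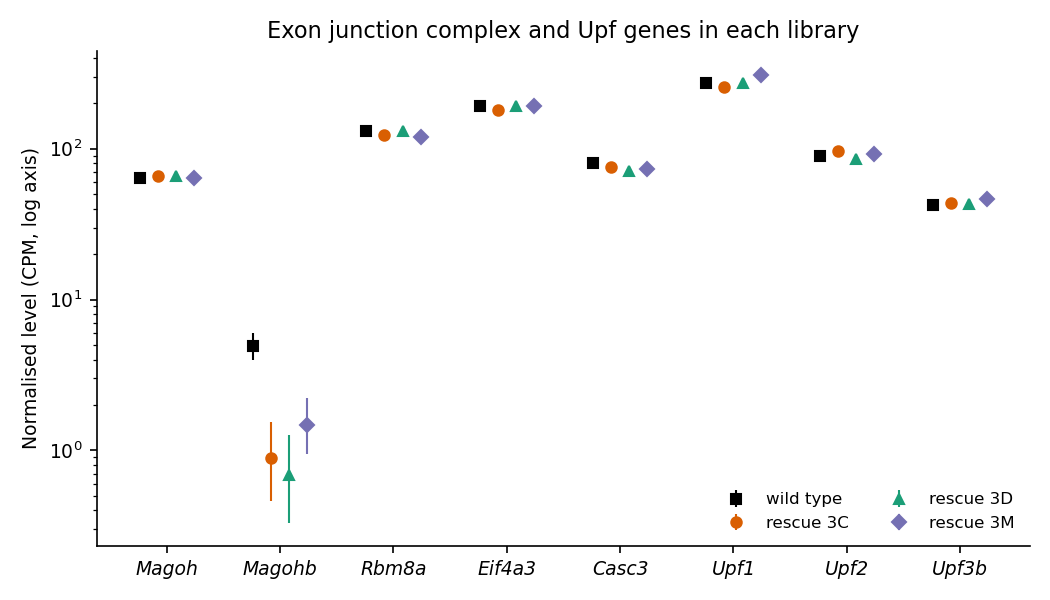
Level of each member in the 4 libraries, in TMM-scaled CPM on a log axis; squares are wt26, other symbols the 3 rescue clones, and bars the 95% exact Poisson interval of the count, which is smaller than the symbol for most genes. *Magohb*, chosen for its low level in the clones, lies at 4.93 CPM in wt26 and at 0.687 to 1.49 CPM in the clones, and the symbols of the other 7 members nearly coincide at this scale.

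*Magohb* gave a small part of the pair in both groups. Its share of the *Magoh* and *Magohb* counts was 7.17% in wt26 (94 of 1311, exact Clopper-Pearson 95% interval 5.83% to 8.70%). In clones 3C, 3D and 3M it was 1.33%, 1.04% and 2.28%, and the highest upper limit among them was 3.40%. These limits cover counting error only. The share contains the *Magohb* counts for which the group was chosen, so it is a description and not a test. Per kb of transcript, which allows levels of different genes to be compared, *Magoh* was at 92.2 CPM and *Magohb* at 6.43 CPM in wt26, and at 94.0 ± 1.73 and 1.33 ± 0.54 CPM in the clones (SD, n = 3).

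The summed level of both genes was 68.7 CPM in wt26 and 66.9, 66.1 and 65.2 CPM in 3C, 3D and 3M. All clones were slightly below wt26, by 0.06 ± 0.02 on the log2 scale (SD, n = 3). The sum contains the *Magohb* counts for which the group was chosen, and it is given with no test, since an exact permutation test of 3 clones against 1 library cannot go below 0.25. *Magohb* was 3.91 CPM lower in the mean of the clones, and *Magoh* was 1.24 CPM higher, a difference within the interval given above. Rbm8a, which pairs with either paralog, gives a comparison within each library that does not depend on scaling. Per kb of transcript, *Magoh* plus *Magohb* stood at 1.96 times *Rbm8a* in wt26 and at 2.05, 1.89 and 2.03 times in the clones, so wt26 lay within the range of the clones. *Magoh* alone stood at 1.83 times *Rbm8a* in wt26 and at 2.03, 1.88 and 1.99 times in 3C, 3D and 3M, above wt26 in all clones. The *Rbm8a* level itself was 131.1 CPM in wt26 and 123, 131.3 and 120.3 CPM in 3C, 3D and 3M. *Magoh* without this division was above wt26 in 3C and 3D only, as given above. The *Rbm8a* counts are uncertain because of *Rbm8a2*, and the ratios were not tested.

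**Figure D2:**
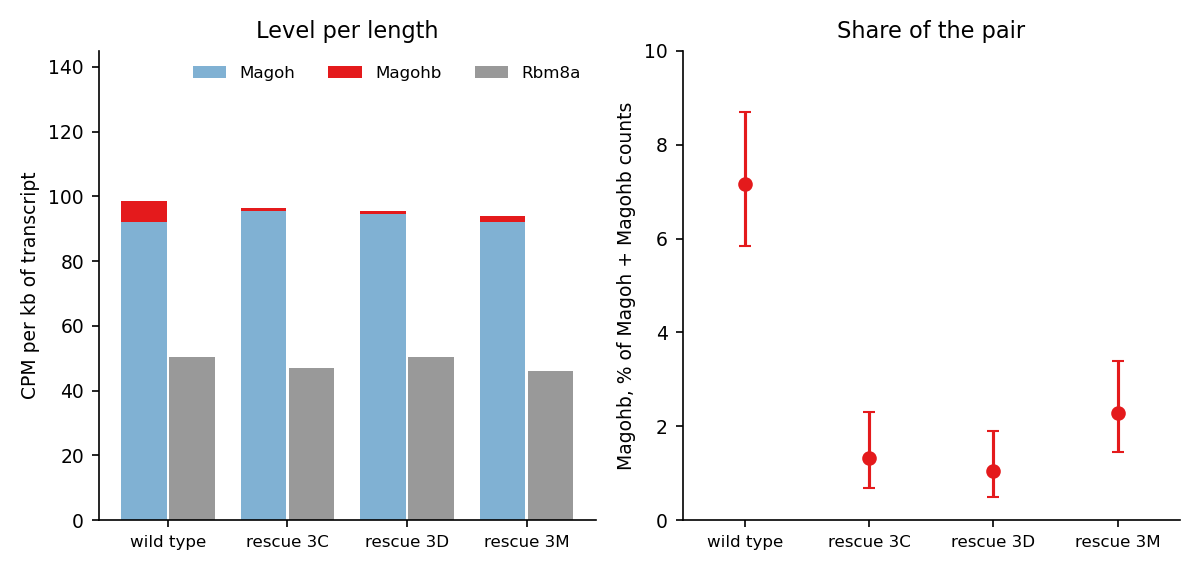
Left, level per kb of transcript (CPM per kb) of *Magoh* and *Magohb*, stacked, beside *Rbm8a* in each library; right, share of *Magohb* in the counts of the pair in percent, with exact 95% intervals of the count. The stack is nearly all *Magoh* in each library (98.6 CPM per kb in total in wt26, 94.0 to 96.6 in the clones), and the share is 7.17% in wt26 and at most 2.28% in the clones.

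Among the other core subunits, *Rbm8a* had 131.1 CPM in wt26 and 123, 131.3 and 120.3 CPM in 3C, 3D and 3M. Clone 3D was at the wt26 level and the others slightly below it, and a log2 fold change of -0.07 (standard error 0.08, edgeR adjusted p = 0.79). *Eif4a3*, the helicase and the most abundant member per kb, had 191 CPM in wt26 and 182, 191 and 192 CPM in the clones. The fitted log2 fold change was -0.02 (standard error 0.07, edgeR adjusted p = 0.96), and wt26 lay inside the range of the clones. *Casc3* had 80.01 CPM in wt26 and 76.0, 71.5 and 73.8 CPM in the clones. It was the only member beside *Magohb* that was below wt26 in 3 of 3 clones, by 0.12 on average on the log2 scale, which did not pass the test (fitted value -0.12, standard error 0.08, edgeR adjusted p = 0.65).

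The Upf factors gave a similar picture. *Upf1*, the helicase of NMD, had 272 CPM in wt26 and 255, 274 and 307 CPM in 3C, 3D and 3M, the widest spread between clones among these 7 members (coefficient of variation 9.56%). The fitted log2 fold change was 0.03 (standard error 0.11, edgeR adjusted p = 0.94). *Upf2*, which connects Upf1 with Upf3b, had 89.2 CPM in wt26 and 96.1, 85.6 and 92.5 CPM in the clones, and a log2 fold change of 0.04 (standard error 0.09, edgeR adjusted p = 0.92). For both genes wt26 fell between the clones. *Upf3b*, the X-linked factor that binds the exon junction complex, had 42.2 CPM in wt26 and 43.8, 43.0 and 46.7 CPM in the clones. It was above wt26 in 3 of 3 clones, and a log2 fold change of 0.08 (standard error 0.10, edgeR adjusted p = 0.82).

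Of the members other than *Magohb*, 0 of 7 passed the adjusted p of 0.01 used in the study, in edgeR, DESeq2 or limma-voom, and 0 had an unadjusted p under 0.05 in edgeR. Over all genes with an adjusted p, edgeR called 0.00754% (1 of 13267), DESeq2 0.67% (64 of 9546) and limma-voom 0% (0 of 13267), and 10.3% of all tested genes had an unadjusted p under 0.05 in edgeR. The 0 calls among 7 members are therefore near the background of each tool. The 95% intervals of the 7 log2 fold changes reached at most -0.32 for *Casc3* on the lower side and 0.32 for *Upf3b* on the upper side. The fitted values lay between -0.12 and 0.08, and 42.2% of all tested genes had values of that size or smaller. One member, *Casc3*, lay below wt26 in all clones and 1, *Upf3b*, above it, whereas 28.4% of all tested genes lay below and 28.7% above in all clones.

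**Figure D3:**
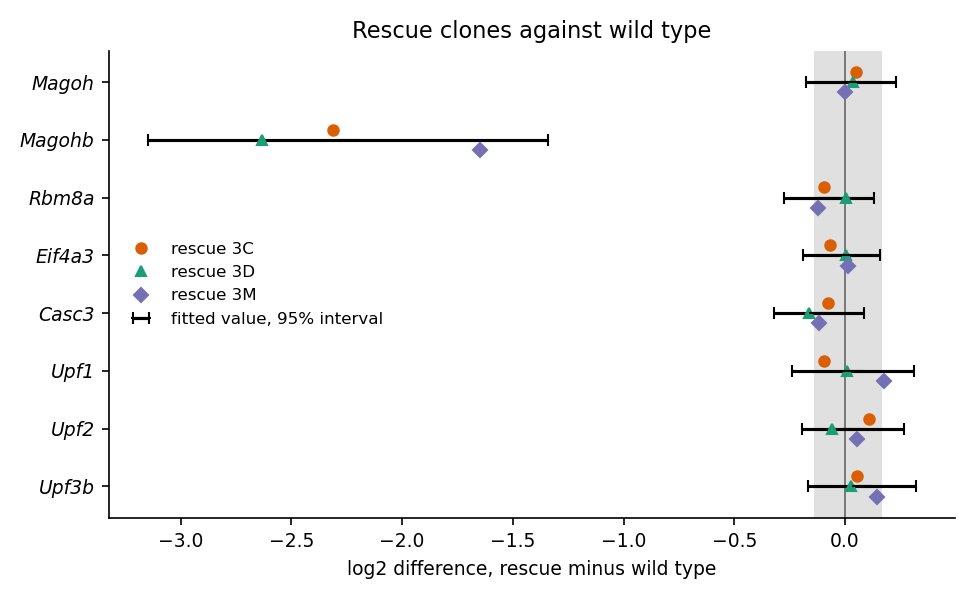
Log2 difference between rescue clones and wt26 for each member; symbols are single clones, the line the fitted value with its 95% interval, and the grey band the middle 50% of all 13267 tested genes (-0.14 to 0.16). The clones of *Magohb* lie between -2.63 and -1.65, and all clone values of the other 7 members between -0.16 and 0.18.

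Per kb of transcript the members kept nearly the same order in each library. *Eif4a3* came first (126 CPM per kb in wt26, 125 ± 3.95 in the clones), before *Magoh*, *Upf1* (58.9 and 60.3 ± 5.77) and *Rbm8a* (50.3 and 47.9 ± 2.23). *Casc3* (21.4 and 19.7 ± 0.60), *Upf3b* (18.0 and 19.0 ± 0.83) and *Upf2* (17.2 and 17.7 ± 1.03) followed, and neighbours among these 3 had overlapping ranges over the libraries, with *Upf3b* above *Casc3* in clone 3M. *Magohb* was last in every library. The ratio of the first to the last was 19.7 in wt26 and between 65.9 and 142 in the clones. The levels per kb rest on 1 annotated transcript per gene, and those of *Eif4a3* and *Rbm8a* are uncertain because of the copies named above.

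The neighbours of *Magohb* were then examined. Within 1 Mb of its start site the count tables list 16 other gene symbols, and 14 of them, mainly natural killer cell and taste receptor genes, had 0 counts in all libraries. *Styk1*, a kinase gene that starts 60.6 kb away, did not reach the minimum for the test, with 4 counts for wt26 and 6, 3 and 2 for the clones. *Ybx3*, a cold-shock domain protein 95.2 kb away, was the 1 neighbour with enough counts. It had 420 CPM in wt26 and 399 ± 32.1 CPM in the clones, and a log2 fold change of -0.07 (standard error 0.10, edgeR adjusted p = 0.83). The low values thus did not extend to *Ybx3*, and no tested gene bounds *Magohb* on the other side within 1 Mb. The 606 tested genes of chromosome 6 had medians of -0.01, 0.01 and -0.005 in 3C, 3D and 3M.

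The genes most like *Magohb* over the 4 libraries were found by the distance between the 3 log2 differences of clones from wt26. The 5 nearest were *Ccdc39*, *Crmp1*, *Slc4a5*, *Arhgef28* and *Fam19a4*, at distances of 0.54, 0.56, 0.70, 0.73 and 0.95. *Slc4a5* and *Fam19a4* are on chromosome 6 like *Magohb*, and the others on chromosomes 3, 5 and 13. Chromosome 6 holds 606 of all 13267 tested genes. Neither *Slc4a5* nor *Fam19a4* starts within 1 Mb of *Magohb*, and position was not tested. *Ccdc39*, required for the assembly of motile cilia, had 39 counts in wt26 and 5, 5 and 11 in the clones. *Crmp1*, a cytoskeletal protein of neurons, was the most abundant of them, with 29.6 CPM in wt26 and 6.60, 5.98 and 7.04 CPM in the clones. With a smaller prior count of 0.5 in place of 2, 4 of the 5 stayed among the 5 nearest.

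The next genes encode proteins that bind around the core or load it. Of 11 listed genes of the periphery and assembly of the complex, all tested, 0 passed the adjusted p of 0.01 in edgeR, DESeq2 or limma-voom, 1 (*Acin1*) had an unadjusted p under 0.05, where all tested genes gave 10.3%, and 9 were above wt26 in all clones, against the 28.7% of all tested genes given above. The median log2 fold change was 0.13, against 0.01 for all tested genes. *Cwc27*, a cyclophilin-type spliceosomal partner of Cwc22, had a log2 fold change of 0.36 (standard error 0.14, edgeR adjusted p = 0.49), and *Sap18*, a subunit of the ASAP complex, 0.35 (standard error 0.17, edgeR adjusted p = 0.55). *Cwc27* lies on chromosome 13 and *Sap18* and *Acin1* on chromosome 14. The 465 tested genes of chromosome 14 had median log2 differences from wt26 of 0.34, 0.34 and 0.35 in 3C, 3D and 3M, and the 512 of chromosome 13 had 0.48, 0.03 and 0.48. Without these 3 genes, 6 of 8 were above wt26 in all clones, the median was 0.09 and 0 had an unadjusted p under 0.05. The part of these chromosomes in the list's values was otherwise not tested. The lowest values of the list were those of *Rnps1*, a splicing activator of the periphery, at -0.04 (standard error 0.11), and *Cwc22*, which brings Eif4a3 to the spliceosome, at 0.002 (standard error 0.11).

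Of 3 tested paralogs of other members, 0 passed the adjusted p of 0.01 in edgeR, DESeq2 or limma-voom and 0 had an unadjusted p under 0.05. *Upf3a*, the paralog of *Upf3b*, had 38.9 CPM in wt26 and 36.8 ± 2.32 CPM in the clones, and a log2 fold change of -0.08 (standard error 0.11, edgeR adjusted p = 0.84). Per kb, *Upf3b* stood at 0.951 times *Upf3a* in wt26 and at 1.01, 1.10 and 1.07 times in the clones. The translation initiation helicases *Eif4a1* and *Eif4a2*, relatives of *Eif4a3* that are not subunits of the exon junction complex, had log2 fold changes of 0.02 (standard errors 0.08 and 0.12). The *Eif4a3* copy *Eif4a3l1* had 1 or 2 counts in each library.

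Of 20 genes of the NMD machinery, all tested, 0 passed the adjusted p of 0.01 in edgeR, DESeq2 or limma-voom and 1 (*Dcp1a*, a decapping cofactor, on chromosome 14) had an unadjusted p under 0.05, against 10.3% of all tested genes. The median log2 fold change was -0.02, 10 genes were below wt26 in all clones (28.4% of all tested genes) and 4 above it (28.7%). The highest values were 0.20 for *Stau1*, which acts in a related decay pathway (standard error 0.09, edgeR adjusted p = 0.51), and 0.20 for *Dcp1a* (standard error 0.08, edgeR adjusted p = 0.48). The lowest were -0.28 for *Dhx34*, an RNA helicase of NMD (standard error 0.12, edgeR adjusted p = 0.51), and -0.14 for *Pnrc2* (standard error 0.11, edgeR adjusted p = 0.69).

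Genes with transcripts known to be degraded by NMD were listed as a readout of the pathway, 18 in all. Of these, 0 passed the adjusted p of 0.01 in edgeR, DESeq2 or limma-voom, 1 (*Ddit3*) had an unadjusted p under 0.05, against 10.3% of all tested genes, and the median log2 fold change was -0.05. DESeq2 gave no adjusted p for *Ddit3* and *Atf3*, which its own filter on low counts left out. In all clones, 7 genes were below wt26 and 3 above it, where all tested genes gave 28.4% and 28.7%. The snoRNA host *Gas5* had 274 CPM in wt26 and 293 ± 14.8 CPM in the clones. The highest values were 0.31 for the stress gene *Gadd45b* (standard error 0.37) and 0.19 for the snoRNA host *Snhg15* (standard error 0.14). The lowest were -0.65 for *Ddit3* (CHOP), with 102 counts in wt26 and 47, 56 and 45 in the clones (standard error 0.24, edgeR adjusted p = 0.46), and -0.30 for *Gadd45a* (standard error 0.22, edgeR adjusted p = 0.67). The counts are per gene, so that the NMD-sensitive transcripts of a gene were not separated from its stable ones.

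Of 16 genes of the TREX mRNA export pathway, which acts on the same spliced mRNAs, 0 passed the adjusted p of 0.01 in edgeR, DESeq2 or limma-voom, and the median log2 fold change was -0.03. In all clones, 7 of the 16 were below wt26 and 5 above it, against 28.4% and 28.7% of all tested genes. *Alyref2*, a copy of the export adaptor *Alyref*, was lowest at -1.01 (standard error 0.37, edgeR adjusted p = 0.45), with 31 counts in wt26 and 12, 10 and 13 in the clones, and was the 1 gene of the list with an unadjusted p under 0.05, against 10.3% of all tested genes. DESeq2 gave it no adjusted p. *Alyref* itself, with 152 CPM in wt26 and 161 ± 4.61 CPM in the clones, had a value of 0.08 (standard error 0.07). *Nxt1*, a cofactor of the export receptor, followed at -0.17 (standard error 0.11). *Thoc3* and *Thoc7*, subunits of the THO complex on chromosomes 13 and 14, were highest at 0.29 and 0.19 (standard errors 0.29 and 0.11). In *Thoc3*, clones 3C and 3M were above wt26, with 1426 and 1723 counts against 1475 in the larger wild-type library, and clone 3D, with 965 counts, was below it.

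**Figure D4:**
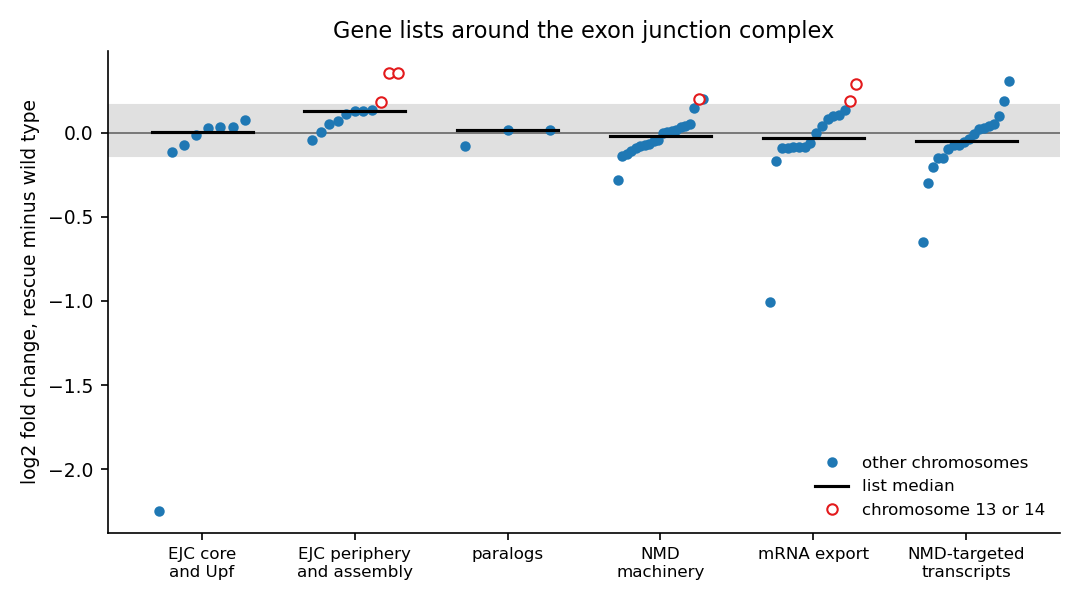
Log2 fold change, rescue clones minus wt26, of each tested gene in 6 lists; black lines are list medians, open red circles genes on chromosome 13 or 14, and the grey band the middle 50% of all tested genes. The list medians lie between -0.05 and 0.13, and *Magohb* (-2.25), *Alyref2* (-1.01) and *Ddit3* (-0.65) are the lowest genes.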

How the data were processed

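The authors aligned the read pairs to mm10 with STAR and deposited read counts per gene without normalization. For the gene annotation they used, a version was not given in the sources used here. The reverse-strand column was used, since the library kit is directional. Read pairs in rows that name no gene, 47.3% of all pairs for wt26 and 53.0% to 54.9% for the clones, stayed out of library sizes and tests. Counts were filtered with filterByExpr (minimum count 10), scaled by TMM and tested with the quasi-likelihood test of edgeR 4.0.16, with Benjamini-Hochberg adjustment over 13267 genes. The spread of a gene comes from the 3 clones and is moderated in the fit toward values estimated over all tested genes. As a single library, wt26 is taken to have the same spread. Standard errors are the log2 fold change, without sign, over the square root of F. A prior count of 2 was added for log2 CPM of single libraries. Positions and transcripts came from GENCODE M21 and RefSeq on GRCm38, the assembly of mm10. Of 24054 symbols, 22542 matched RefSeq directly and 1352 by 1 synonym. In 3 simulations with 200 genes changed 4-fold in each, the test recovered 100% of them. It called 6 unchanged genes in the 3 simulations together, with a median of 13235 genes tested per simulation. The simulated spread was the same for every gene, and genes with low counts were not among the changed ones. The recovery therefore does not carry over to the real libraries, where *Morc3*, at a log2 fold change of 1.87, had an edgeR adjusted p of 0.11. The members and gene lists were chosen with earlier results of these data known. Named were all members, the 2 highest and 2 lowest genes of each list, the 5 genes most like *Magohb*, its nearest tested neighbour and *Morc3*. *Col3a1*, *Dcn*, *Lum*, *Styk1*, *Gas5*, *Alyref*, *Acin1*, *Atf3* and *Eif4a3l1* were added after their values were seen. Other tools tried were DESeq2 1.42.0, limma-voom (limma 3.58.1) and edgeR's legacy method. Other settings were unstranded counts, scaling by DESeq2 size factors, by total counts or by TMM factors that ignore the most abundant genes or chromosomes 13 and 14, other filters, and fits that omit 1 clone.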

Additional observations from a re-analysis of the deposited data

How the results depend on the processing

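Of 198 values recomputed, 185 kept direction and call, or shifted by no more than the clones differ. *Magohb* lay between -2.64 and -2.02 under 12 alternatives, and 0 of the other 7 members passed the threshold in any of them. The signs of *Eif4a3*, *Upf1* and *Upf2*, all near 0, changed under 1 alternative each. No paired analysis was possible because wt26 is a single library and the labels give no numbers that tie it to a clone. The count of called genes over the whole table, 1, became 64 with DESeq2 and 0 with 10 counts in every library, with limma-voom and with the legacy method of edgeR. Omitting 1 clone gave 0 to 420 calls, the most without 3D and 0 without 3M, and what causes this was not tested. The log2 difference of the summed *Magoh* and *Magohb* level was -0.087 when scaled to total counts only, and -0.066 to -0.048 when 1 clone was omitted. The median of the 3 other paralogs, 0.017, ranged from -0.074 to 0.038 when 1 clone was omitted, and was below 0 without 3C and without 3D. The median of the periphery list ranged from 0.092 (without 3D) to 0.14 in those fits. The median of the NMD machinery was -0.0092 with TMM factors from genes outside chromosomes 13 and 14. Without the genes on these chromosomes, an alternative added after seeing the data, the median was 0.089 for the periphery, -0.044 for the NMD machinery and -0.072 for mRNA export. With 10 to 23 counts of *Magohb* in a clone, depth limits comparisons between clones.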
